A study of Mus musculus with 22 samples.

Results

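The cells described here are splenic germinal center B cells of an ovalbumin (OVA) response whose heavy chain uses the V gene IGHV2-5. They were chosen from the receptor sequences: a cell belongs if its productive heavy-chain contig with most unique molecular identifiers (UMIs) was called IGHV2-5. That holds for 171 of the 2015 cells of the OVA library with a productive heavy chain, out of 5503 such cells in 3 single-cell libraries. After the cell filter (500 or more detected genes and at most 10% mitochondrial UMIs) 161 of 1871 cells remained, a share of 8.61% (exact Clopper-Pearson 95% interval 7.37 to 9.97%). The other 10 IGHV2-5 cells had more than 10% mitochondrial UMIs. The remaining 1710 OVA cells are the cells they are set against. In the libraries from NP-immunized mice, 1 of 1947 cells (0.0514%) and 0 of 1541 cells used IGHV2-5, and 0 of 1541 allows a share of up to 0.195%, taking 3 counts as the limit that a count of 0 allows.

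All animals were male C57BL/6 mice, 8 weeks of age in the sample labels, immunized intraperitoneally with 100 µg of antigen in alum with 1 µg of LPS. OVA mice gave the OVA single-cell library, sorted as all B220+ germinal center B cells with high Fas and GL-7 and with no selection for antigen binding, and 16 bulk heavy-chain libraries of OVA-binding germinal center B cells, 4 each of p and n at day 13 and of p and n at day 7. The letters p and n are used as names, since the labels do not say what they stand for, nor on which day the OVA single cells were sorted. The NP libraries hold NP-binding cells sorted at day 13 from mice given NP(23)-KLH. There is 1 OVA single-cell library, so the comparison of IGHV2-5 cells with other OVA cells has no replicate and no test. Its intervals cover counting error only, and cells of a clone share an ancestor and are not independent of each other.

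An antibody heavy chain is assembled from a V, a D and a J segment, and the junction between them, the third complementarity-determining region (CDR3), is different in nearly every new B cell. B cells with the same V, J and CDR3 are therefore taken as descendants of 1 founder. In the germinal center these descendants divide and mutate their receptor genes in the dark zone, and are selected with T cell help in the light zone. The descendants may also switch from IgM to another isotype, which need not happen in the germinal center. The light chain that pairs with the heavy chain is kept.

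The heavy-chain CDR3s below are the commonest of the IGHV2-5 lineages that pair with the light-chain V gene IGKV8-21, and show what these junctions share. A lineage groups cells with the same V and J gene and CDR3 length, linked through CDR3s that are at least 90% identical. Members linked through others may be less alike. Sequences run 5′ to 3′ from the first cysteine codon to the final tryptophan codon, as in the contigs, with codon 4 in capitals.
Lineage 1, 64 cells, IGHJ4: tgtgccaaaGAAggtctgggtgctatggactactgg
Lineage 3, 19 cells, IGHJ2: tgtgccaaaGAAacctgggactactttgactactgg
Lineage 4, 11 cells, IGHJ3: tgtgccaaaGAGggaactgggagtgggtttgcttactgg
Lineage 6, 7 cells, IGHJ2: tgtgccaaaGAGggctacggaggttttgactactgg
Lineage 8, 4 cells, IGHJ4: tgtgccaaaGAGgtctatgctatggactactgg
Lineage 9, 3 cells, IGHJ4: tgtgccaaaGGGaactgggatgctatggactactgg
Lineage 10, 3 cells, IGHJ4: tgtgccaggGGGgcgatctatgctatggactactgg
Lineage 12, 2 cells, IGHJ3: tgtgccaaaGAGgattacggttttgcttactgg

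The 3 largest lineages with another light chain are shown in the same way for contrast. Lineage 2 pairs with IGKV4-91, lineage 5 with IGKV6-15 and lineage 7 with IGKV4-50.
Lineage 2, 23 cells, IGHJ3: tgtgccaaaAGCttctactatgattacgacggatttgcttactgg
Lineage 5, 10 cells, IGHJ3: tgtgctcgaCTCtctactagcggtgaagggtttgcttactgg
Lineage 7, 7 cells, IGHJ4: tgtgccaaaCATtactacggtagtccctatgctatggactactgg

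Codon 4 was GAA or GAG, which both encode glutamate, in 6 of the 8 IGKV8-21 lineages and in 1 of the 8 lineages with another light chain. Over cells, 67.7% of the IGHV2-5 cells (95% interval 59.9 to 74.8%) and 12.9% of the other OVA cells (11.3 to 14.5%) had either codon at this position. Counted by lineage, the shares were 8 of 17 (47.1%) among IGHV2-5 lineages and 54 of 611 (8.84%) among the rest. Codon 4 was picked after these same sequences were seen, so the shares describe them and were not tested. The IGKV8-21 lineages used 3 J genes, IGHJ4 in 4 lineages and IGHJ2 and IGHJ3 in 2 each, so the shared codon was found in front of different J segments. Their CDR3s were 33 to 39 bases long, and those of the lineages with another light chain 39 to 54 bases.

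The light-chain CDR3s of the IGKV8-21 lineages were alike and, in 104 of 108 cells, 30 bases long. The likeness follows in part from the V gene by which these lineages were grouped. Of the 41 other OVA cells with IGKV8-21, 33 had this length too. The light-chain CDR3s are given as the commonest sequence of the lineage, with no capitals. Lineage 9 is left out because its 3 cells had 3 different light-chain CDR3s.
Lineage 1, IGKJ5, 43 cells: tgcaagcaatcttataatctgctcacgttc
Lineages 3 and 10, IGKJ4, 13 and 3 cells: tgcaagcaatcttataatctattcacgttc
Lineage 4, IGKJ4, 8 cells: tgtaagcaatcttacaatctattcacgttc
Lineage 6, IGKJ2, 6 cells: tgcaagcaatcttataatctgtacacgttc
Lineage 8, IGKJ2, 4 cells: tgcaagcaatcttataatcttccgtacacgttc
Lineage 12, IGKJ5, 2 cells: tgcaagcaatcttataatcttttcacgttc
These lineages differ in light-chain J gene as well as in heavy-chain junction.

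The receptor calls were checked against the gene table, in which the V segments are counted separately from the contigs. Ighv2-5 transcripts (chromosome 12, 113685482 to 113685774, GRCm38.p6, a V segment) had 3598 UMIs in 160 of 161 IGHV2-5 cells, against 44 UMIs in 15 of 1710 other cells (0.877%). Ighv2-2, another gene of the same V family, had 84 UMIs in 25 IGHV2-5 cells, and Ighv2-3 and Ighv2-9-1, of the same family, had 0; the source of the Ighv2-2 UMIs was not tested. Igkv8-21 transcripts (chromosome 6, 70314895 to 70315452) had 3521 UMIs in 112 IGHV2-5 cells and 1193 UMIs in 61 other cells. The median depth was 7842 UMIs and 2594 genes per IGHV2-5 cell and 8260.5 UMIs and 2567 genes per other cell, and the mitochondrial share was 2.85% and 2.93%. The summed level of germinal center markers, with 9 genes measured, was 2265 CPM in IGHV2-5 cells and 2209 CPM in other cells, where CPM is UMIs of a gene per 1000000 UMIs after immunoglobulin genes were removed. The T cell genes Cd3e, Cd3d, Cd3g, Cd4 and Cd8a had 0 UMIs in the IGHV2-5 cells and 3, 13, 6, 0 and 1 UMIs in the other cells, and Trac had 3 and 17 UMIs and Il7r 1 and 1. The summed marker levels were 176 and 168 CPM for T cells (12 genes, mostly from Cd2 and Lck), 227 and 219 CPM for myeloid cells (12 genes), 68.5 and 68.9 CPM for erythroid cells (6 genes) and 1881 and 1914 CPM for plasma cells (12 genes), each in IGHV2-5 cells and then other cells. NK cell markers (7 genes) had 1 UMI and 15 UMIs. Of the OVA library's barcodes 11 also occurred in the NP 1 library and 9 in NP 2, and 1 IGHV2-5 cell was among them.

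The 161 cells carried 44 heavy-chain clones (same V, J and CDR3 bases), which fell into 17 lineages. The largest clone had 42 cells and the largest lineage 64, while 28 clones and 5 lineages had a single cell. The 7 lineages with 5 or more cells held 141 of the 161 cells. In clones of 2 or more cells were 82.6% of the IGHV2-5 cells (95% interval 75.9 to 88.1%), against 52.7% of the other OVA cells (50.4 to 55.1%). In lineages of 2 or more cells the shares were 96.9% and 78.5%. Within a lineage the light chain was nearly always the same: of the 158 cells with a productive light chain, 153 had their lineage's commonest light-chain V gene.

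**Figure D1:**
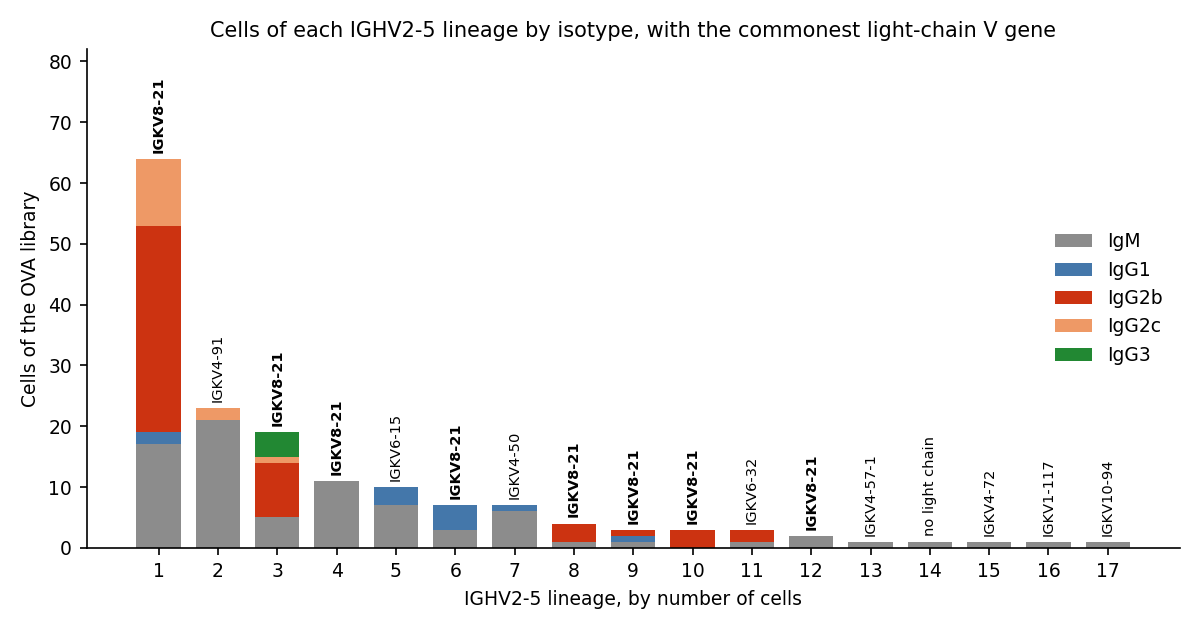
Cells of the OVA library (y axis) in each of the 17 IGHV2-5 lineages (x axis, by size), split by isotype, with the commonest light-chain V gene written above each bar. Lineage 1 has 64 cells, of which 34 are IgG2b and 17 IgM, and lineage 4 has 11 cells, all IgM.

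CDR3 variants within lineages were almost all replacements, and most variants were seen in 1 cell each. The share of replacements in other lineages or among random changes was not worked out, so selection cannot be read from these counts. Beside the commonest CDR3 of each lineage there were 27 variant CDR3s, of which 25 changed an amino acid (42 cells) and 2 did not (2 cells); the commonest CDR3s held 117 cells. The variant found in most cells was in lineage 1 and differed from its commonest CDR3 by T31G, with positions counted from 1 at the first base of the CDR3; the substituted base is in capitals.
Lineage 1, T31G, 13 cells: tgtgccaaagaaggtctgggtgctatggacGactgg
All 13 cells with T31G alone were IgG2b, as was 1 further cell with T31G and T21A. Of the 42 cells with the commonest CDR3, 16 were IgG2b, 14 IgM, 10 IgG2c and 2 IgG1. T31G cells and cells with the commonest CDR3 had dark zone sums of 1552 and 1569 CPM and light zone sums of 1989 and 1951 CPM.

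The light chain IGKV8-21 was found in 108 of 158 IGHV2-5 cells (68.4%, 95% interval 60.5 to 75.5%), against 41 of 1679 other OVA cells (2.44%, 1.76 to 3.30%). Put the other way, 108 of the 149 IGKV8-21 cells of the library (72.5%) had an IGHV2-5 heavy chain. The pairing was not confined to 1 founder: it was the commonest light chain in 8 of 16 IGHV2-5 lineages with a light chain, against 12 of 606 other lineages (1.98%), and without lineage 1 the share of cells was 49.0%. The next light chains were IGKV4-91 with 23 cells (14.6%), nearly all from lineage 2, and IGKV6-15 with 9 cells (5.70%). Lambda light chains were found in 0 of 158 IGHV2-5 cells and in 3.87% of the other cells. For independent cells this 0 allows up to 1.90% by the limit of 3 counts. The 158 cells come from 16 lineages that mostly share a light chain, so the limit by lineage is wider and no deficit is shown. In NP 1, 1 of 1634 cells with a light chain used IGKV8-21, and in NP 2 0 of 1402.

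Switched isotypes made up 50.3% of the IGHV2-5 cells and 48.0% of the other cells, but the isotypes that they switched to differed. IgG1 was found in 6.83% of the IGHV2-5 cells (95% interval 3.46 to 11.9%), against 20.7% of the other cells (18.8 to 22.7%). IgG2b was found in 32.3% (25.2 to 40.1%), against 17.7% (15.9 to 19.6%). IgM made up 49.7% and 51.9%, IgG2c 8.70% and 6.61%, and IgG3 2.48% and 2.40%, each in IGHV2-5 cells and then other cells.

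These shares were set beside counts that give lineage 1 less weight. Without lineage 1, IgG1 was 9.28% (4.33 to 16.9%) and IgG2b 18.6% (11.4 to 27.7%) of 97 IGHV2-5 cells, so that the IgG2b interval takes in the 17.7% of the other cells, and switched cells were 35.1%. With each lineage counted once, IgG1 averaged 8.11% in IGHV2-5 lineages and 20.1% in other lineages, IgG2b 22.1% and 9.31%, and switched cells 33.3% and 34.0%. With each clone counted once, IgG1 averaged 11.7% and 21.2%, and IgG2b 30.6% and 14.7%. IgG1 was lower and IgG2b higher in IGHV2-5 cells in each of these counts, with IgG2b without lineage 1 within its counting interval. Isotype also differed by light chain. IGHV2-5 cells with IGKV8-21 were switched in 69 of 108 cells (63.9%) and IgG2b in 46 (42.6%), against 10 and 4 of the 50 cells with another light chain. Lineage 1, which pairs with IGKV8-21, held 47 of the 81 switched and 34 of the 52 IgG2b cells among all IGHV2-5 cells. Lineages 4 and 12, which pair with it as well, were all IgM. Lineages differed widely: lineage 3 had 9 IgG2b, 5 IgM, 4 IgG3 and 1 IgG2c cells and held the 4 IgG3 cells of the set, lineage 6 had 4 IgG1 and 3 IgM cells, lineage 2 had 21 IgM and 2 IgG2c cells, and lineage 10 had 3 IgG2b cells.

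**Figure D2:**
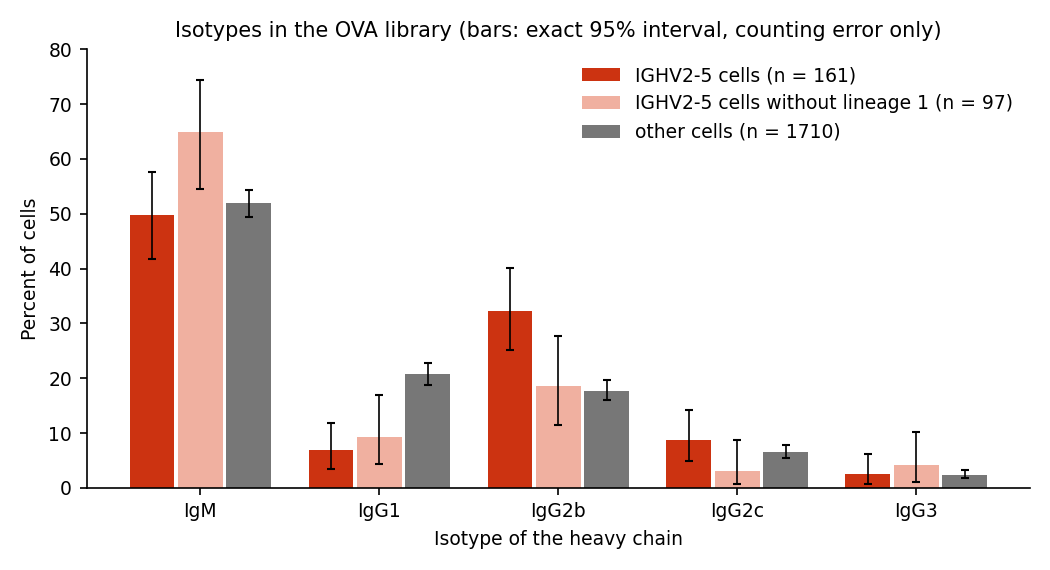
Percent of cells (y axis) of each isotype (x axis) in the OVA library for IGHV2-5 cells, IGHV2-5 cells without lineage 1 and the other cells, with exact 95% intervals for counting error. IgG1 stands at 6.83, 9.28 and 20.7% and IgG2b at 32.3, 18.6 and 17.7%.

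Other V genes give a scale for these shares. Among the 17 heavy-chain V genes with 30 or more cells, IGHV2-5 had the most cells (161, with IGHV1-72 next at 151). Its share of cells in clones of 2 or more, 82.6%, was above the 16.7 to 65.8% of the other V genes, and its IgG1 share, 6.83%, was below their 7.28 to 70.7%. Without lineage 1 the IgG1 share was 9.28%, above the 7.28, 7.69 and 8.11% of IGHV1-72, IGHV2-9-1 and IGHV7-3. Its IgG2b share of 32.3% was the third highest, behind a top value of 46.4% in IGHV1-72. Its commonest light chain, at 68.4%, was the third highest as well, with 70.3% in IGHV7-3 above it. The largest lineage took 39.8% of the IGHV2-5 cells, the fifth highest of the 17. These are ranks in 1 library and were not tested.

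**Figure D3:**
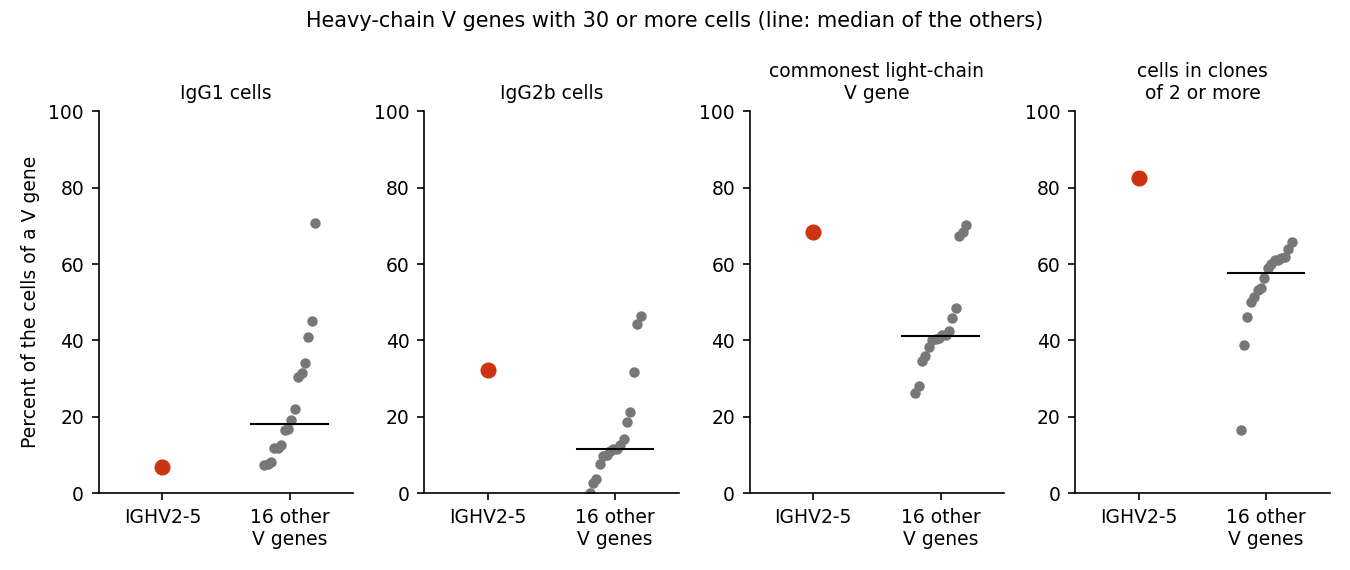
Percent of the cells of a V gene (y axis) that are IgG1, that are IgG2b, that have the V gene's commonest light chain, and that lie in clones of 2 or more cells, for IGHV2-5 and for 16 other V genes with 30 or more cells, with a line at the median of the 16. IGHV2-5 lies under all 16 for IgG1 (6.83%, but 9.28% without lineage 1) and above all 16 for clones (82.6%).

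Gene expression in IGHV2-5 cells differed little from that of the other OVA cells. Of 5564 genes with a mean of 20 CPM or more, 38 (0.683%) were higher and 34 (0.611%) lower by 1.5-fold or more, together 1.29%. The counting interval of the ratio left out 1 for all 72, which the fold and level cutoffs largely fix in advance. With TMM scaling, which moves every log2 fold by -0.06, the split was 24 higher and 46 lower. The median log2 fold of all genes was 0.04. Genes near 20 CPM rest on few UMIs, since the IGHV2-5 cells hold 1535720 UMIs in all, immunoglobulin genes included, against 15948700 in the other cells.

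Among the 12 genes named as higher, the highest ratio was that of Akr1e1, an aldo-keto reductase, with 30.9 CPM (47 UMIs in 38 cells) in IGHV2-5 cells against 14.8 CPM in other cells, a log2 fold of 1.04. It was found in 6 of the 7 largest lineages and at 0 UMIs in lineage 6. Fto, an RNA demethylase, had 32.9 and 16.6 CPM (0.97), with 45.7 against 15.3 CPM among switched cells and 20.7 against 17.6 CPM among IgM cells. Rint1, which acts in vesicle transport between Golgi and endoplasmic reticulum, had 26.3 and 14.2 CPM (0.87). Kif2c, a kinesin of mitotic spindles, had 32.9 and 18.0 CPM (0.85). Cxcr3, a chemokine receptor of activated lymphocytes, had 48.1 CPM (73 UMIs) and 27.8 CPM (438 UMIs), a log2 fold of 0.78. Its level was 68.5 against 30.7 CPM among switched cells and 28.4 against 24.9 CPM among IgM cells, and over the 7 largest lineages it was 120 CPM in lineage 3, 254 CPM (9 UMIs) in lineage 6 and 49.1 CPM in lineage 1, but 16.9, 8.26 and 0 CPM in lineages 2, 4 and 7. The other genes named as higher had log2 folds of 0.73 to 0.84: Arfip1, Asns (asparagine synthetase), Usp9x (a deubiquitinase), Thap1 (a zinc finger transcription factor), D10Wsu102e, Ripk1 (a kinase of death receptor signalling) and Phlda1. For Asns the log2 fold was 0.04 among switched cells. Levels of Akr1e1, Fto, Rint1, Thap1, D10Wsu102e and Ripk1 were higher in IGHV2-5 cells than in each of the 16 other V genes. The 16 V genes are part of the cells that these genes were chosen against, so their rank follows in part from that choice.

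Among the 12 genes named as lower, Plac8 had the largest fold, followed by Klf2 and Cd38, which belong to the list of memory and naive B cell genes. Plac8 had 6.59 CPM (10 UMIs in 5 cells, with 50.0% of the UMIs in 1 cell) in IGHV2-5 cells against 42.5 CPM (669 UMIs) in other cells, a log2 fold of -2.60. Klf2, a transcription factor of resting, recirculating lymphocytes, had 12.5 and 34.6 CPM (-1.43). Cd38, a surface enzyme that mouse germinal center B cells carry less of than resting B cells, had 12.5 and 30.4 CPM (-1.25). These 3 genes moved with clone size among the other cells: Plac8 was 9.72 CPM in other cells of clones of 2 or more and 81.4 CPM in those of clones of 1, Klf2 15.7 and 57.0 CPM, and Cd38 22.7 and 39.5 CPM. In clones of 2 or more cells alone, the log2 folds of IGHV2-5 over other cells were -1.25 for Plac8, -0.64 for Klf2 and -0.79 for Cd38. In the 20 IGHV2-5 cells of lineages under 5 cells Plac8 was at 37.5 CPM (5 UMIs). Median levels of the 5 IGHV2-5 and 28 other lineages with 10 or more cells were 3.17 and 0 CPM for Plac8. They were 8.26 and 4.88 CPM for Klf2 and 13.5 and 15.8 CPM for Cd38, so among lineages of this size Plac8 and Klf2 were not lower. The part of clone size in these differences was not tested beyond these comparisons.

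Ly6d, a surface protein of the B cell lineage, was the most abundant gene named as lower. It had 233 CPM (354 UMIs) in IGHV2-5 cells and 404 CPM in other cells, a log2 fold of -0.79. Among switched cells it was 203 against 223 CPM, and among IgM cells 262 against 582 CPM. Over the 7 lineages with 5 or more cells it ran between 91.9 CPM in lineage 1 and 468 CPM in lineage 3, and in the 20 cells of the smaller lineages together it was 936 CPM (125 UMIs). The other genes named as lower had log2 folds of -1.11 to -0.74: Snn, Ifi203 (interferon-inducible), Samsn1 (an adaptor that restrains B cell activation), AB124611, Rnf213 (a ubiquitin ligase), Pdia4 (a disulfide isomerase of the endoplasmic reticulum), Mettl1 (a tRNA methyltransferase) and Tnfaip8l2. Ly6d and some of these genes moved with clone size as well. In other cells of clones of 2 or more and of clones of 1, Ly6d was 254 and 583 CPM. Snn was 18.4 and 38.5 CPM, Ifi203 15.9 and 46.3 CPM and Pdia4 43.7 and 77.1 CPM. The remaining genes of this paragraph differed less. In clones of 2 or more cells alone, the log2 folds were -0.41 for Ly6d, -0.67 for Snn, -0.29 for Ifi203 and -0.59 for Pdia4. Median levels of the 5 IGHV2-5 and 28 other lineages with 10 or more cells were 173 and 175 CPM for Ly6d. They were 11.1 and 9.12 CPM for Ifi203, 0 and 15.1 CPM for Snn, and 24.0 and 40.9 CPM for Pdia4. The levels of Snn, AB124611 and Tnfaip8l2 were lower in IGHV2-5 cells than in each of the 16 other V genes. This rank too follows in part from how they were chosen. For Snn the gap was narrow, at 12.5 CPM against 12.6 CPM in IGHV1-26.

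**Figure D4:**
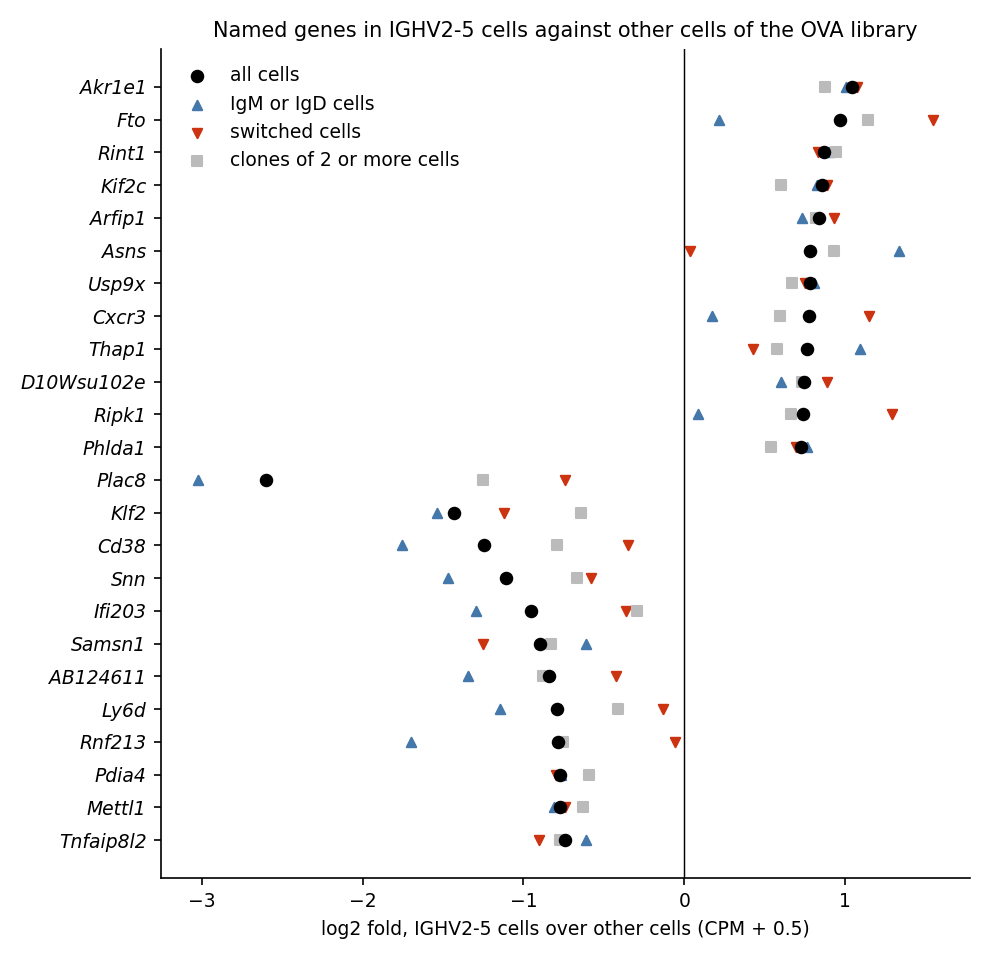
Log2 fold of IGHV2-5 cells over other OVA cells (x axis) for the 24 named genes (y axis), in all cells, in IgM or IgD cells, in switched cells and in clones of 2 or more cells. The genes were chosen to keep their sign in IgM or IgD cells and in switched cells, so that agreement is no result; Plac8 stands at -2.60 in all cells and -1.25 in clones of 2 or more.

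Gene lists differed by smaller factors than these single genes. Dark zone genes summed to 1561 CPM in IGHV2-5 cells against 1392 CPM in other cells, a ratio of 1.12 (95% interval 1.07 to 1.17). In clones of 2 or more cells alone the ratio was 1.04. Over all cells, none of the 14 measured genes passed 1.5-fold, and their median log2 fold was 0.15. Among the most abundant were Mki67 with 215 and 198 CPM, Cenpa with 191 and 138 CPM, and Ccnb2 with 163 and 129 CPM. Light zone genes summed to 1770 and 1908 CPM, a ratio of 0.927 (0.891 to 0.965). Of the 15 that passed the level filter 1 was lower by 1.5-fold, Batf, an AP-1 family transcription factor, with 16.5 and 27.3 CPM. The most abundant light zone genes were Cd83 with 323 and 359 CPM and Nfkbia with 290 and 329 CPM, while Cd86, a costimulatory ligand for T cells, ran the other way with 138 and 113 CPM. Cd86, Batf and, below, Rad51ap1 were named after their values were seen.

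Genes of G2 and M phase summed to 6550 CPM in IGHV2-5 cells and 5802 CPM in other cells, a ratio of 1.13 (1.11 to 1.15), with 1 of 45 genes higher by 1.5-fold (Kif2c) and none lower. Without lineage 1 the ratio was 1.01, and in clones of 2 or more cells alone it was 1.05. S phase genes had a ratio of 1.03, with 1 of 39 lower, Rad51ap1 at 21.7 and 34.3 CPM. Antigen presentation genes, led by Cd74 with 19263 and 20721 CPM and H2-Aa with 3466 and 3841 CPM, had a ratio of 0.927 (0.918 to 0.935) with none of 19 past 1.5-fold, and their sum was lower in IGHV2-5 cells than in each of the 16 other V genes. The gap was narrow, at 34790 CPM against 35334 CPM in IGHV5-17. This sum was 22170 and 27176 CPM in lineages 2 and 4, but 35431 to 54448 CPM in lineages 1, 3, 5, 6 and 7. The list of memory and naive B cell genes had a ratio of 0.892 (0.862 to 0.924), with 2 of 11 lower (Klf2 and Cd38), and 0.972 without lineage 1. Its most abundant members were Ltb with 928 and 1072 CPM, Vim with 286 and 229 CPM, and Fcer2a with 222 and 251 CPM. Nuclear-encoded genes of oxidative phosphorylation, the theme of the study's title, had a ratio of 1.03 with none of 77 past 1.5-fold, and the 13 mitochondrially encoded ones a ratio of 0.988. Ratios were 1.02 for MYC targets (33 genes), 0.963 for B cell receptor signaling (25 genes), 1.02 for hypermutation and switching genes (13 genes) 0.894 for interferon response genes (9 genes, of which Ifi203 was lower) and 0.915 for genes of the response to tissue dissociation (9 genes, none past 1.5-fold).

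The direction of the zone lists turned with isotype. Among IgM cells, dark zone genes summed to 1788 CPM in IGHV2-5 cells and 1344 CPM in other cells, and light zone genes to 1496 and 1830 CPM. Among switched cells, dark zone genes summed to 1324 and 1442 CPM and light zone genes to 2055 and 1990 CPM, so the ratios lay on the other side of 1. The same turn was seen for G2 and M phase genes, with a ratio of 1.28 among IgM cells and 0.972 among switched cells, and for antigen presentation genes, with 0.836 and 1.02. Cells divide in the dark zone, so the G2 and M list is not a separate observation from the dark zone list. Without lineages 2 and 4, which hold 21 and 11 of the IgM cells, the remaining 48 IGHV2-5 IgM cells had a dark zone sum of 1491 CPM and a light zone sum of 1799 CPM. These 48 cells had 5852 CPM of G2 and M phase genes, against 5870 CPM in other IgM cells, and 38668 against 37414 CPM of antigen presentation genes, so without those lineages the first difference was gone and the other lay on the other side.

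Lineages spread widely in zone genes. Among the 7 lineages with 5 or more cells, dark zone sums were highest in lineage 4 (2172 CPM, 95% interval 1917 to 2451), lineage 5 (2098 CPM) and lineage 2 (1927 CPM, 1773 to 2092), which were mostly or all IgM, and lowest in lineage 6 (621 CPM, 7 cells) and lineage 3 (979 CPM, 834 to 1141). Light zone sums ran the other way, with 1404, 1274 and 1104 CPM in lineages 4, 5 and 2 and 3163 and 2017 CPM in lineages 6 and 3. Lineage 7, with 6 of 7 cells IgM, had 1192 CPM of dark zone and 1845 CPM of light zone genes, unlike the other lineages that were mostly IgM. The 20 cells of the smaller lineages together had 659 CPM (529 to 812) of dark zone and 2397 CPM of light zone genes. The intervals of lineages 2, 4 and 5 overlap for dark zone genes, and those of lineages 3 and 6 do as well. Lineage 1 shows the same contrast within 1 lineage: its 47 switched cells had 1494 CPM of dark zone and 2113 CPM of light zone genes, against 2106 and 1376 CPM in its 17 IgM cells. Over the 5 IGHV2-5 lineages with 10 or more cells dark zone sums ran from 979 to 2172 CPM and light zone sums from 1104 to 2017 CPM, and over the 28 other lineages of this size from 730 to 2073 CPM and from 1058 to 2894 CPM.

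**Figure D5:**
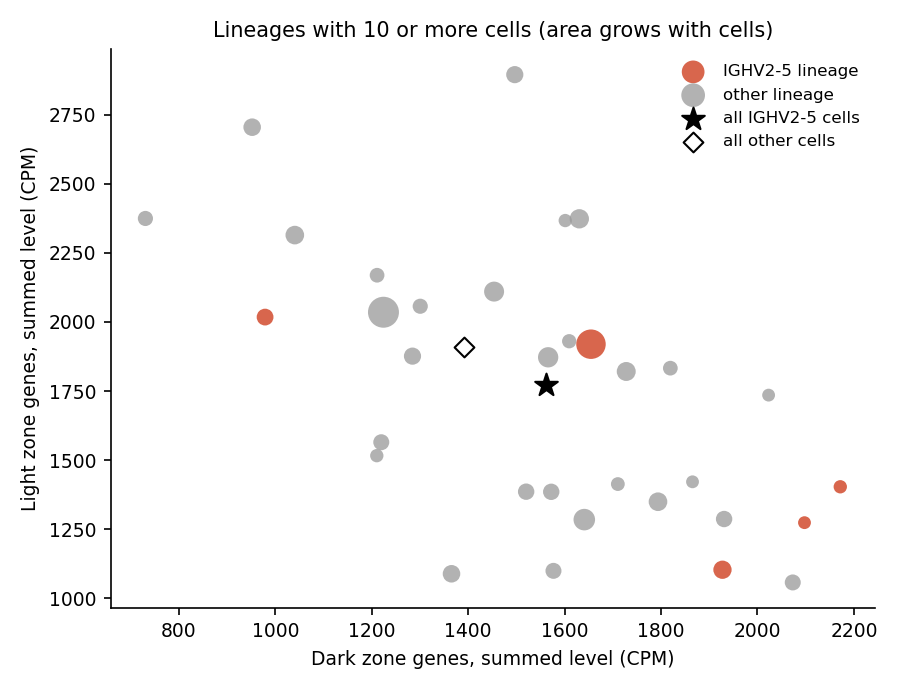
Summed level of dark zone genes (x axis, CPM) against that of light zone genes (y axis, CPM) for the 5 IGHV2-5 lineages and 28 other lineages with 10 or more cells, with marker area growing with cells. Lineages 2, 4 and 5 lie at the dark zone end between 1927 and 2172 CPM, lineage 3 at 979 CPM, and the star for all IGHV2-5 cells (1561 and 1770 CPM) lies near the diamond for all other cells (1392 and 1908 CPM).

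The bulk libraries of OVA-binding cells ask whether IGHV2-5 is common in a second data set, with libraries as replicates. Only 29 of their 8520 sequences were called IGHV2-5, and the 26 with a CDR3 gave 19 distinct rearrangements out of 5492. The share of IGHV2-5 among distinct rearrangements at day 13 was 0, 0, 0.549 and 0.394% in the p libraries (mean 0.236 ± 0.280%, SD, n = 4) and 1.27, 0, 0.926 and 1.57% in the n libraries (0.942 ± 0.680%, n = 4). At day 7 it was 0.246, 0, 0.164 and 0.205% in the p libraries (0.154 ± 0.108%, n = 4) and 0.222, 0.207, 0.273 and 0% in the n libraries (0.175 ± 0.120%, n = 4). The groups overlap in each comparison. With 179 to 611 rearrangements per library, 1 rearrangement decides most of these values, and by the limit of 3 counts a 0 allows up to 1.68% in the smallest library. Fewer IGHV2-5 cells and less receptor RNA per cell cannot be told apart in bulk libraries.

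Exact two-sided permutation tests over libraries, which with 4 against 4 can reach 0.0286, found no difference past 0.05. In these exact tests the difference was -0.706 percentage points for p minus n at day 13 (p = 0.171, adjusted over the 4 comparisons 0.343) and -0.0218 points at day 7 (p = 0.657, adjusted 0.657). The exact tests of day 13 minus day 7 gave 0.0821 points for p (p = 0.657, adjusted 0.657) and 0.766 points for n (p = 0.143, adjusted 0.343). Leaving out replicate 2 of the day 13 n libraries, the one at 0, gave -1.02 and 1.08 points in the 2 comparisons that use it, each with an exact p of 0.0571. That is the smallest p that these tests can reach with a library left out, so they could not pass 0.05. Nothing in the labels says that libraries come from separate animals, so these p-values measure the spread between libraries, which may be technical.

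The bulk rearrangements were other junctions than those of the single cells. Each of the 19 occurred in 1 library, and 0 of the 48 distinct CDR3s of the IGHV2-5 single cells was found in the bulk table under any V gene, against 8 of the 1141 heavy-chain CDR3s of the OVA single-cell library as a whole. Single-cell CDR3s were thus rare in the bulk table whatever their V gene, and the 0 of 48 is no trait of IGHV2-5. For 8 of the 19 a single-cell IGHV2-5 CDR3 of the same J gene and length exists, and the highest identity was 86.7%. Codon 4 was GAA or GAG in 2 of 19 (10.5%), against 309 of 5473 rearrangements of other V genes (5.65%). Their CDR3s were 36 to 54 bases long with a median of 45, and 5 were of 33 to 39 bases. The J genes were IGHJ4 in 9, IGHJ1 in 5, IGHJ2 in 3 and IGHJ3 in 2.

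V-region mutation, as 100 minus the deposited percent identity, averaged 0.578% over the 29 IGHV2-5 sequences and 0.511% over the other sequences. Of the 29, 12 had none, and the highest value was 1.66%. Libraries with 3 or more IGHV2-5 sequences were 1 p library at day 13, with 0.458%, and 3 n libraries at day 13, with 0.967, 0.827 and 0.565%. The difference of p minus n was -0.328 points and has no test with 1 library; at day 7 no library had 3 such sequences.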

How the data were processed

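The submitters' processing notes name Cell Ranger and the mouse build mm10. Their versions, and the tools that made the bulk sequences, were not stated in the sources at hand. The authors deposited a table of UMI counts per gene and cell (14407 genes, not normalized), contig tables with UMI and read counts per contig, and a bulk sequence table with V identity as a deposited percent. Cells were kept with 500 or more genes and at most 10% mitochondrial UMIs. No doublet caller was run; cells with more than 1 productive heavy chain (5 IGHV2-5, 40 other) were left out as an alternative.

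For expression, 225 immunoglobulin genes were removed, UMI counts were summed per set of cells and given as CPM, and log2 folds used a pseudocount of 0.5 CPM and genes with a mean of 20 CPM or more. Intervals are exact conditional binomial or Clopper-Pearson. Named genes are the 12 of largest fold each way past 1.5-fold with the same direction without the largest clone, in IgM or IgD cells and in switched cells, and the 4 most abundant of each list, of which some are given. Members and lists were chosen with earlier results of these data known. Bulk CDR3s (found in 95.6% of sequences) were read from each sequence; identical V, J and CDR3 counted once per library. Gene positions come from RefSeq GRCm38.p6. Scripts were tested on simulated data. Python 3.11.15, numpy 2.4.6, scipy 1.17.1, pandas 2.3.3, matplotlib 3.10.9, and edgeR 4.0.16 in R 4.3.3 for TMM factors alone were used.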

Additional observations from a re-analysis of the deposited data

Results flagged for a closer look

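Of 12 sets of 4 bulk libraries examined, 1 held a library that stood apart by Dixon's criterion at the 95% level. Among the day 13 n libraries, replicate 2 had 0.0% IGHV2-5 sequences (0 of 342), while the other 3 had 1.38, 1.63 and 1.43%. Chance alone marks about 1 in 20 such sets. With identical rearrangements counted once the same library had 0 of 179, against 1.27, 0.926 and 1.57% in the others, and did not pass the criterion.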

How the results depend on the processing

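The direction of the 24 named genes was fixed by their choice in 3 of the 13 alternatives and cannot move with the gene filters. In the other 8 alternatives, which use mostly the same cells, 192 of 192 values had the same direction and 22 were under 1.5-fold. The counts of genes past 1.5-fold, 38 higher and 34 lower, moved with the settings: 273 and 289 with a mean of 5 CPM, 1087 and 723 with 1 UMI in each set of cells, 147 and 58 with the mean of per-cell CPM, 195 and 146 in IgM or IgD cells, 147 and 113 in switched cells, 391 and 279 with cells thinned to 2500 UMIs (11 IGHV2-5 and 73 other cells left out as shallower), 86 and 106 without lineage 1, 62 lower without the largest clone, and 24 higher with TMM. The cause of these moves was not tested. Among the 12 of 19 lists whose interval leaves out 1, those that changed side were, in switched cells, dark zone 0.918, light zone 1.03, G2 and M 0.972, S 0.944, nuclear OXPHOS 0.974, MYC targets 0.984, antigen presentation 1.02, receptor signaling 1.05, interferon 1.07 and dissociation response 1.02. With TMM they were S 0.986, nuclear OXPHOS 0.992 and MYC targets 0.980; without the largest clone S 0.936 and MYC targets 0.970; without lineage 1 S 0.949 and MYC targets 0.958. The mitochondrially encoded list was 1.00 at a limit of 1000 genes and 5% mitochondrial UMIs, and interferon 1.02 in clones of 2 or more. In IgM cells without lineages 2 and 4 they were G2 and M 0.997, S 0.886, nuclear OXPHOS 0.956, mitochondrially encoded OXPHOS 1.11, MYC targets 0.888, antigen presentation 1.03 and receptor signaling 1.05. Of lists whose interval takes in 1, germinal center markers were 0.929 and hypermutation 0.881 in switched cells, and 0.985 and 0.982 with TMM, against 1.03 and 1.02 in all cells. Counting 17 lineages in place of 44 clones made the largest 64 cells in place of 42. Without lineage 1 and with each lineage counted once, IgM was 64.9 and 66.7%, IgG2b 18.6 and 22.1%, IgG2c 3.09 and 1.83%, switched 35.1 and 33.3%, and IGKV8-21 49.0 and 49.0%. With each clone counted once and without the largest clone, IgG2c was 3.86 and 3.36% and IGKV8-21 59.9 and 57.6%; 36.4% of clones had 2 or more cells. The alternatives on lineage 1, on IgM cells without lineages 2 and 4, on lineages counted once and on clones of 2 or more cells were chosen after seeing the data.

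Leaving out each bulk library in turn, the p minus n difference ran from -1.02 to -0.497 points at day 13 and from -0.0803 to 0.0294 at day 7. Day 13 minus day 7 ran from -0.0224 to 0.161 for p and from 0.558 to 1.08 for n. With 1 library left out the smallest possible exact p is 0.0571, so these tests could not pass 0.05. The positive day 7 values came without p replicate 2 (0.0294) and n replicate 3 (0.0108), and the negative one for p without day 13 replicate 3. Counting every sequence gave -0.702 (exact p = 0.20), -0.0117 (0.886), 0.291 (0.429) and 0.981 (0.143). Same-numbered correlations over V genes ran from -0.0167 to 0.104 at day 13, with 1 of 4 pairs over 0.1, and from -0.0969 to 0.463 at day 7, with 3 of 4; the numbers were not taken as pairs, which would need every pair over 0.1. As a hint from the data, 6 of 8 libraries at day 7 and 1 of 8 at day 13 correlated best with their own number. With a replicate block the differences of -0.706, -0.0218, 0.0821 and 0.766 points had exact p-values of 0.25, 0.875, 0.75 and 0.25 (smallest possible 0.125), so no call at 0.05 was possible. For mutation no paired analysis was possible because fewer than 2 numbers were shared. Its planned tests at day 7 and between days could not be run. With 1 or more sequences per library the 4 exact p-values were 0.2 to 1.0, with too few libraries for any to pass 0.05. Leaving out libraries moved the day 13 difference from -0.438 to -0.238 points, and library medians gave -0.743.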

Other observations

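IGKV8-21 light chains were also found in 41 OVA cells with other heavy chains, IGHV1-26 in 10, IGHV1-76 in 8, IGHV10-3 in 5, and IGHV14-3 and IGHV5-17 in 4 each. The light-chain CDR3 was 30 bases long in 104 of 108 IGHV2-5 cells with this light chain and in 33 of these 41 cells. Dark zone genes summed to 1518 CPM in the IGHV2-5 cells with IGKV8-21 and 1422 CPM in the 41 cells, and light zone genes to 1962 and 2102 CPM. Cxcr3 was at 56.6 CPM in IGHV2-5 cells with IGKV8-21, at 25.6 CPM in IGHV2-5 cells with another light chain, and at 49.2 CPM in the 41 cells; these values were chosen after they were seen and were not tested.

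1 cell called IGHV8-4, with IGKV8-21, carried a CDR3 of lineage 3. In the NP 1 and NP 2 libraries 0 cells carried the CDR3 of an IGHV2-5 OVA cell.

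The single-cell comparison rests on 1 library, in which lineage 1 holds 39.8% of the IGHV2-5 cells. V mutation of the single cells was not analysed here. Genes near 20 CPM rest on few UMIs in 161 cells, so their folds are the least certain.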
